A study of Homo sapiens with 4 samples.

Results

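FLI1-only peaks are FLI1 ChIP-seq intervals that met neither an SSRP1 peak nor a peak of histone H3 acetylated at lysine 27 (H3K27ac). Those described here lay on chromosome 8, or on the long arm of chromosome 3 from 120 Mb in hg19, called distal 3q below. A FLI1 peak belonged to the class when it shared under 20% of either peak with every SSRP1 and H3K27ac interval, and peaks with 4 or more tandem copies of GGAA were left out. The rule gave 5600 peaks, of 36305 FLI1 peaks on chromosomes 1 to 22 and X: 3595 on chromosome 8 and 2005 on distal 3q. They were set against the 18761 FLI1-only peaks of the rest, which comprises the other chromosomes and chromosome 3 before 120 Mb.

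All libraries came from SKNMC, an established Ewing sarcoma cell line, grown without any treatment named in the labels. Chromatin was cut with micrococcal nuclease and sonicated, then precipitated with an antibody to FLI1, to SSRP1 or to H3K27ac. Each target had 1 library, and input DNA of the same cells was the control for peak calling. With 1 library per target there was no replicate and no test, and the brackets below give exact 95% intervals for counting error only; read depth was not analysed here, and peaks of 1 library are not independent replicates.

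Ewing sarcoma carries a fusion of EWSR1 with an ETS factor gene, most often FLI1, and in such cells a FLI1 antibody recovers the fusion protein EWS-FLI1. ETS factors bind a GGAA core, best in a context such as CCGGAAG, and EWS-FLI1 also binds tandem GGAA repeats, from which it can set up enhancers. SSRP1 is a subunit of FACT, a histone chaperone that opens and rebuilds nucleosomes, and H3K27ac marks active promoters and enhancers. The 6 genes taken as Ewing sarcoma markers were NR0B1, NKX2-2, CCND1, STEAP1, SOX2 and PRKCB. All had a FLI1 peak within 2.5 kb of a transcription start site (TSS), at 0 to 612 bp. None of those peaks was FLI1-only, and SOX2, which encodes a stem cell factor, lies on distal 3q. The share of all genes with a FLI1 peak that near a TSS was not computed, so this only describes the 6 genes.

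The letters under 4 distal 3q peaks, each called by the nearest or the host gene, are examples of the class. All are from the + strand of GRCh37 (hg19), at most 300 bp wide, and among the widest of their kind. The first 2 hold an ETS core, CCGGAA followed by A or G or its reverse complement, in capitals, in their central 200 bp; such peaks were 32 of 2005 on distal 3q. The MAGEF1 peak lies at chr3:184381485-184381780, between genes, 48072 bp from a TSS. The FOXL2NB peak lies at chr3:138679241-138679530, between genes, 13182 bp from a TSS, and holds 2 cores.
MAGEF1 peak: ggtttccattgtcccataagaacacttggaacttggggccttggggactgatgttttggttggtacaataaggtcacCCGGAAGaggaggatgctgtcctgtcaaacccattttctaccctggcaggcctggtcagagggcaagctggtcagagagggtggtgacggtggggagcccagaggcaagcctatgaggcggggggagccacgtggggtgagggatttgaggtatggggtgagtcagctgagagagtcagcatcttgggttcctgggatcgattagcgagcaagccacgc
FOXL2NB peak: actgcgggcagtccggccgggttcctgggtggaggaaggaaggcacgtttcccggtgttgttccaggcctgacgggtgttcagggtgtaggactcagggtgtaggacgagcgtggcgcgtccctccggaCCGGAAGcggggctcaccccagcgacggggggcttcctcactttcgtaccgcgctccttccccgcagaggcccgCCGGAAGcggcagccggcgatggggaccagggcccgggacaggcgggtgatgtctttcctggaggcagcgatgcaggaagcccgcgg

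The next is 1 of 2 distal 3q members with 3 tandem GGAA, the longest run that the rule admits, and the run is in capitals (TTCC, since it is read on the other strand). It lies at chr3:123039737-123040015 in an intron of ADCY5, which encodes an adenylyl cyclase.
ADCY5 peak: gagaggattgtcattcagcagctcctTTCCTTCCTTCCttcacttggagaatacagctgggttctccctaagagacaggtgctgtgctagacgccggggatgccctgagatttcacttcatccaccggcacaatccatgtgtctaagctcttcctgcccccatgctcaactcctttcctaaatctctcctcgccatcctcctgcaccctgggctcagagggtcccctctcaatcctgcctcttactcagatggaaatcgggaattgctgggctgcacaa

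The last holds neither an ETS core as defined above nor 2 tandem GGAA, like most members, so nothing is in capitals. It does hold GGAA in single copies. The 4 peaks are no sample of the class: none holds any of the 10 leading 10-mers described further on, which 46.6% of distal 3q members held. It lies at chr3:122774285-122774584, between genes, 11288 bp from a TSS of PDIA5.
PDIA5 peak: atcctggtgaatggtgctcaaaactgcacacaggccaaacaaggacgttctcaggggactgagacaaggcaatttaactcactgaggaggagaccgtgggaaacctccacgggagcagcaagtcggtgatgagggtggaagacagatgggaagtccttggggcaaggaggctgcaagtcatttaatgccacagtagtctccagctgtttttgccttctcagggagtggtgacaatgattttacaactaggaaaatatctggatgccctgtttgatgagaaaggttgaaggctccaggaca

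In the 2 regions 7149 FLI1 peaks were listed, and 5600 of them (78.3%, 77.4 to 79.3) were FLI1-only without a GGAA run. A further 1514 met SSRP1 or H3K27ac, and 35 were FLI1-only with a run of at least 4 GGAA, 21 on chromosome 8 and 14 on distal 3q. In the rest, 18761 of 29156 FLI1 peaks (64.35%, 63.8 to 64.9) were in the class, 10075 met another list and 320 were left out for a run. These shares are a description, since the rule used the lack of overlap and the regions were picked for their density.

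FLI1-only peaks numbered 25.4 per Mb of sequenced bases (24.7 to 26.0) over the 2 regions, against 7.175 per Mb (7.07 to 7.28) in the rest, a ratio of 3.53 (3.43 to 3.64). Chromosome 8 held 25.2 per Mb and distal 3q 25.7 per Mb, so the 2 regions were nearly alike. They ranked second and first among 24 parts, and the other 22 parts ranged between 0.351 per Mb on chromosome X and 18.2 per Mb on chromosome 22, with a median of 8.08. Chromosome 3 before 120 Mb, on the other side of the limit that defines distal 3q, held 1.45 per Mb. The 5600 members lay in 220.8 Mb and made up 22.99% of all FLI1-only peaks. This density chose the regions and is given as a description.

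**Figure D1:**
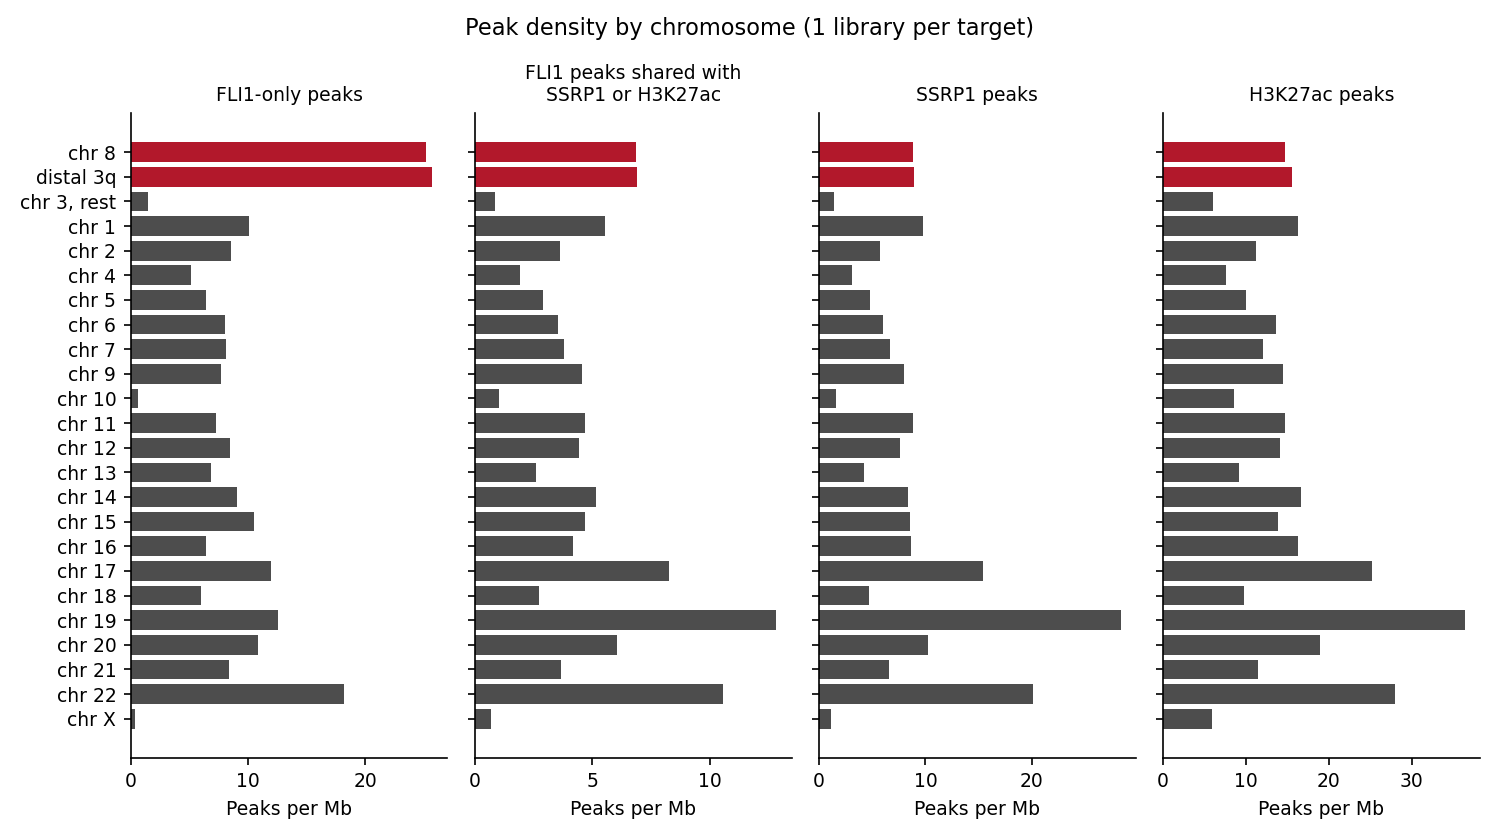
Peaks per Mb of sequenced bases (horizontal axes) for chromosome 8 and distal 3q (red bars, top) and the other parts (grey bars), in 4 classes of peaks from 1 library per target. In the FLI1-only panel the red bars reach 25.2 and 25.7 per Mb and no grey bar exceeds 18.2; in the SSRP1 and H3K27ac panels the red bars lie among the grey ones.

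The other classes of peaks were closer to the rest in density. FLI1 peaks shared with SSRP1 or H3K27ac numbered 6.86 per Mb in the 2 regions and 3.85 per Mb in the rest, a ratio of 1.78 (1.69 to 1.88). SSRP1 peaks numbered 8.88 per Mb in the regions and 6.84 per Mb in the rest, a ratio of 1.30 (1.24 to 1.36), and H3K27ac peaks 14.99 against 12.96 per Mb, a ratio of 1.16 (1.12 to 1.20). Among SSRP1 peaks that met no FLI1 peak the ratio was 1.04 (0.980 to 1.11), an interval that holds 1, but among those that met neither FLI1 nor H3K27ac it was 1.24 (1.14 to 1.34). Among H3K27ac peaks with neither FLI1 nor SSRP1 it was 1.05 (1.00 to 1.10). Read from the H3K27ac list, 32.3% of H3K27ac peaks met FLI1 in the regions (30.7 to 33.9) and 23.3% in the rest (22.8 to 23.7), while 27.2% of them met SSRP1 in the regions (25.7 to 28.7) and 25.55% in the rest (25.1 to 26.0). Of SSRP1 peaks, 43.7% met FLI1 in the regions and 29.95% in the rest. Overlaps with FLI1, and ratios for peaks outside FLI1, depend on how dense FLI1 peaks were. The regions were picked for dense FLI1-only peaks, so these values are a description.

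The ratio was above 1 in every kind of member examined, and its size varied. The regions were picked for the density of FLI1-only peaks, so ratios above 1 were largely built in and are a description. FLI1-only peaks with 4 or more tandem GGAA, which the rule leaves out, gave 1.295 (0.886 to 1.84), an interval that holds 1, on 35 peaks in the regions and 320 in the rest. By width, the ratio of regions over rest was 3.11 (2.96 to 3.26) for peaks of 227 to 250 bp, 3.70 (3.49 to 3.93) for those over 250 and up to 300 bp, 3.82 (3.59 to 4.07) for those over 300 and up to 400 bp and 4.30 (3.93 to 4.69) for wider peaks. It was 2.445 (1.956 to 3.03) for peaks with an ETS core and 3.56 (3.46 to 3.67) for those without. Peaks within 2.5 kb of a TSS gave 2.47 (2.16 to 2.80), and peaks farther away 3.62 (3.51 to 3.73). Exonic peaks gave 2.38, intronic peaks 3.26 and peaks between genes 3.94. With an H3K27ac peak within 10 kb the ratio was 2.84 (2.65 to 3.03), and without one 3.77 (3.64 to 3.89).

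**Figure D2:**
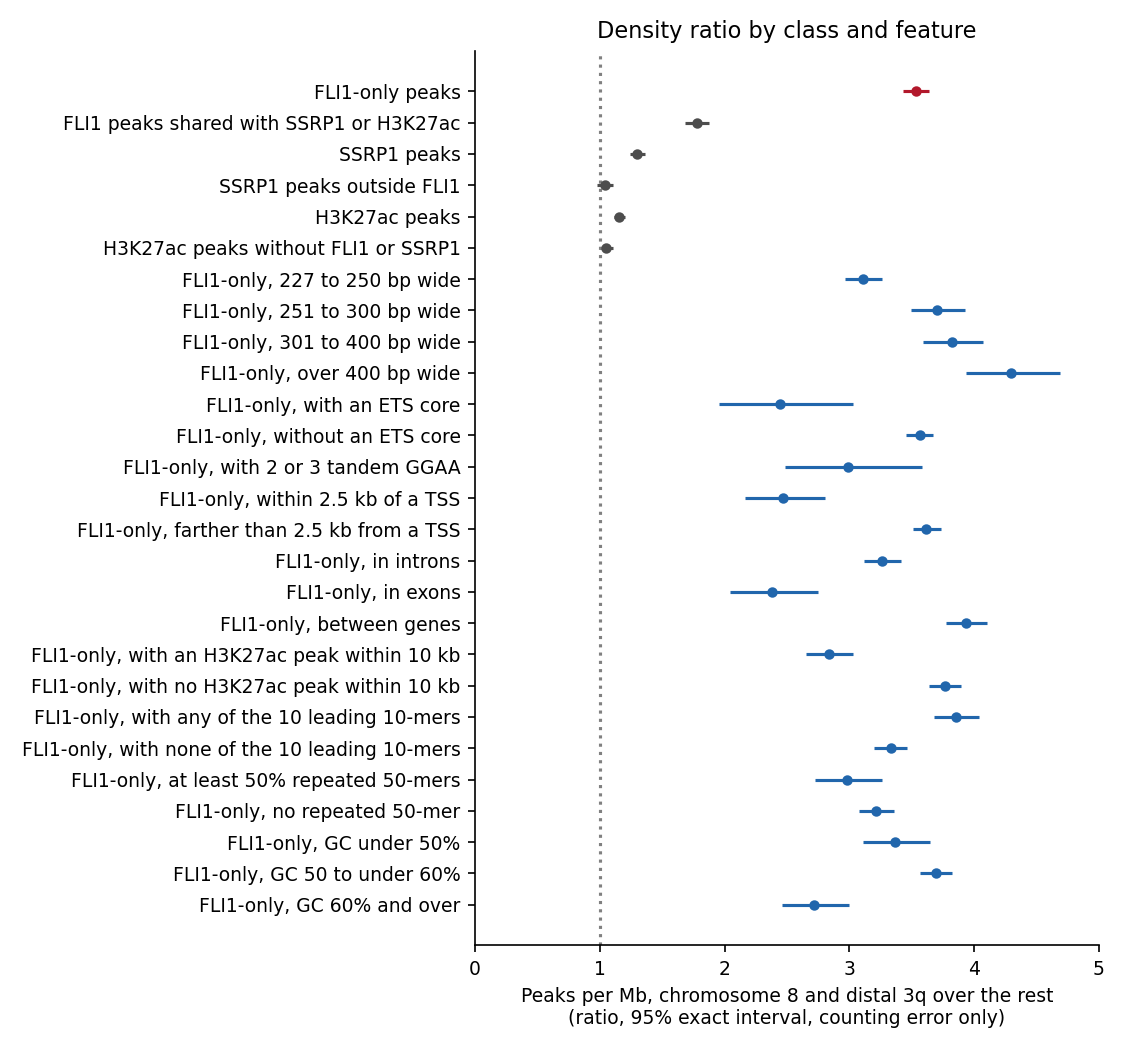
Ratio of peaks per Mb, chromosome 8 and distal 3q over the rest (horizontal axis), for all FLI1-only peaks (red), for other classes of peaks (grey) and for kinds of FLI1-only peak (blue). Bars are exact 95% intervals for counting error, and the dotted line marks a ratio of 1. The grey points lie between 1.04 and 1.78, and the blue points between 2.38 and 4.30.

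Along chromosome 3 the change in density was a step. The 1 Mb bins from 115 to 121 Mb held 3, 4, 1, 1, 5 and 3 FLI1-only peaks, and the bin from 121 to 122 Mb held 9. The bins from 122 Mb held 37, 40, 32, 48, 59, 44, 68 and 51. The step therefore lay near 122 Mb, inside the region that the rule defines, and the bins between 120 and 122 Mb held far fewer members than those after them. In 5 Mb bins, FLI1-only peaks numbered at most 1.4 per Mb up to 85 Mb and between 1.5 and 5.6 per Mb from there to 120 Mb. H3K27ac peaks also rose at 122 Mb, with 4 in the bin before it and 46 in the bin after it. They were uneven before that, with 26, 7, 0, 1, 14 and 8 in the bins from 115 to 121 Mb. SSRP1 peaks numbered 0 in the bin before 122 Mb and 21 in the bin after it. On the sparse side, the 5 Mb bin with most H3K27ac peaks (45 to 50 Mb) held 105 of them and 6 FLI1-only peaks.

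**Figure D3:**
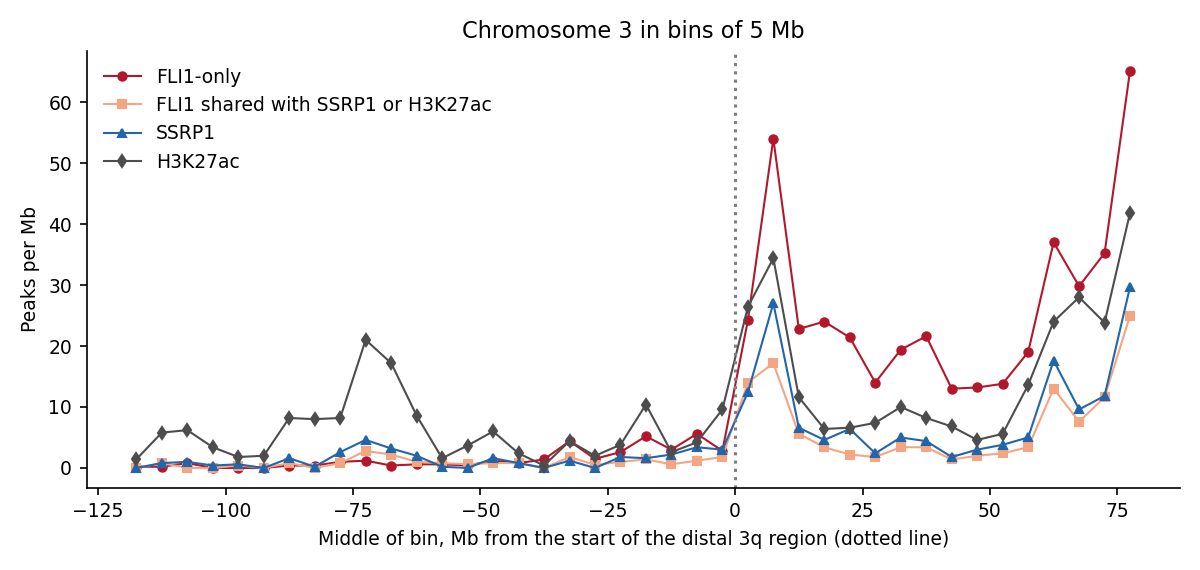
Peaks per Mb (vertical axis) in 5 Mb bins along chromosome 3, by distance in Mb from the start of distal 3q (dotted line). FLI1-only peaks (red) lie above the other 3 classes in every bin right of the line except the first, where H3K27ac peaks (dark grey) are slightly denser. Left of it they stay under 6 per Mb.

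Within the regions members were spread over nearly all of the sequence. Of 145 bins of 1 Mb on chromosome 8, 1 held no member, and the median was 20.0 and the highest 74. All 78 bins of distal 3q held members, between 3 and 85, with a median of 19.5. The densest bins on distal 3q lay at 195 to 196 Mb, with 85 members, and at 194 to 195 Mb, with 70. On chromosome 8 they lay at 7 to 8 Mb, with 74, and at 142 to 143 Mb, with 72. The bin at 7 Mb held 4 H3K27ac peaks and the bin at 142 Mb 21. The bin at 7 Mb also holds near-identical FAM90A gene copies, described further on, among which read assignment is uncertain.

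Members were denser where GC content was higher. Over 29 bins of 5 Mb on chromosome 8, members per Mb and GC content had a Pearson r of 0.891 and a Spearman correlation of 0.88; over 16 bins on distal 3q these were 0.893 and 0.921. The r with SSRP1 peaks was 0.815 on chromosome 8 and 0.972 on distal 3q, and with H3K27ac peaks 0.749 and 0.905. Bins along a chromosome are neighbours from the same library and share base composition and gene content, so these values describe the profile and carry no test.

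Members were slightly wider than the pooled class of the rest, but not than that of every other chromosome. Their median width was 269 bp, with quartiles of 234 and 331.25 bp, against 262 bp in the rest, with quartiles of 227 and 320 bp. Over the 22 other parts the median width ranged from 253 to 282 bp. It exceeded 269 bp on chromosomes 10, 16, 19, 21 and 22. The smallest width in the list, 227 bp, was that of 18.4% of members (17.4 to 19.5) and of 25.5% of the rest (24.9 to 26.1). FLI1 peaks shared with another list in the same regions were wider, with a median of 386.5 bp. Several summit lines were listed for 1.68% of members (1.36 to 2.05), for 0.997% of the rest (0.860 to 1.15) and for 14.9% of the shared FLI1 peaks of the regions.

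Members were GC-rich for their chromosomes. In the 200 bp at the peak centre the mean GC content was 53.9% ± 4.42 (SD over 5600 peaks) in the regions and 54.3% ± 4.95 (SD over 18761 peaks) in the rest, while all 200 bp tiles of the regions averaged 40.05% and those of the rest 40.98%. Most members lay between 50% and 60% GC, with 47.7% of them at 50 to 55% and 29.46% at 55 to 60%, against 8.90% and 3.60% of tiles. The means of the regions and the rest differed by far less than the SD over peaks.

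Few members held the ETS core as defined above, which is stricter than GGAA alone. It occurred in the central 200 bp of 102 members (1.82%, 1.49 to 2.21), in 2.63% of FLI1-only peaks of the rest (2.41 to 2.87), and in 10.2% of the FLI1 peaks of the regions that met another list (8.69 to 11.8). All 200 bp tiles of the regions held it in 0.750% of cases. Tiles reweighted to the GC content of the members held it in 1.76%, so the share in members was 1.04 times that of tiles with their GC content, 1.09 times on chromosome 8 and 0.944 times on distal 3q. The same ratio was 1.48 for the class in the rest, 3.49 for shared FLI1 peaks of the regions and 4.12 for those of the rest. At 50 to 55% GC, where 47.7% of members lay, 1.535% of members held the core (1.10 to 2.08) and 1.57% of the rest (1.31 to 1.86). At 55 to 60% the shares were 1.88% of members (1.28 to 2.66) and 2.81% of the rest (2.40 to 3.28), and at 60 to 65% they were 2.71% of members (1.36 to 4.80) and 5.755% of the rest (4.67 to 7.004). Single chromosomes of the rest had shares as low as 1.99%, on chromosomes 1 and 12, against 1.95% on chromosome 8 (1.52 to 2.45) and 1.60% on distal 3q (1.09 to 2.25).

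**Figure D4:**
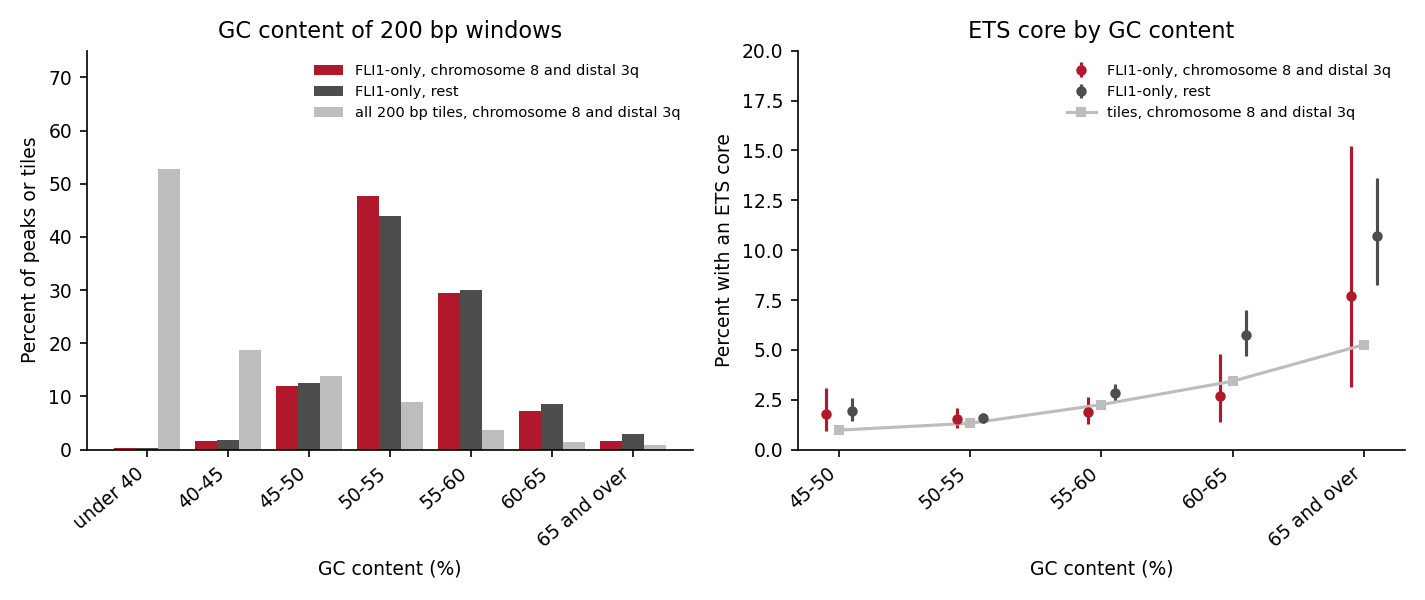
Left, percent of FLI1-only peaks of chromosome 8 and distal 3q (red), of FLI1-only peaks of the rest (dark grey) and of all 200 bp tiles of the 2 regions (light grey) by GC content; 47.7% of members fall at 50 to 55%. Right, percent of peaks with an ETS core by GC content, with exact 95% intervals, and of tiles of the 2 regions (light grey line); the red and dark grey points nearly meet at 45 to 55%, and from 55% on the dark grey points are higher.

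By position, the central bins of members held fewer cores than those of the class elsewhere. In the 50 bp on each side of the midpoint, members held 5.54 and 3.93 cores per 1000 peaks, against 7.41 and 8.37 in the class elsewhere. Within 250 bp of the midpoint the bins of members held between 3.39 and 5.71, and those beyond it between 1.43 and 4.46, a lower range that overlaps the first. In the rest the bins within 250 bp held between 3.20 and 8.37, and those beyond it between 2.825 and 3.84. Shared FLI1 peaks held 30.4 and 35.7 in the central bins of the regions, and 43.4 and 41.4 in those of the rest.

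**Figure D5:**
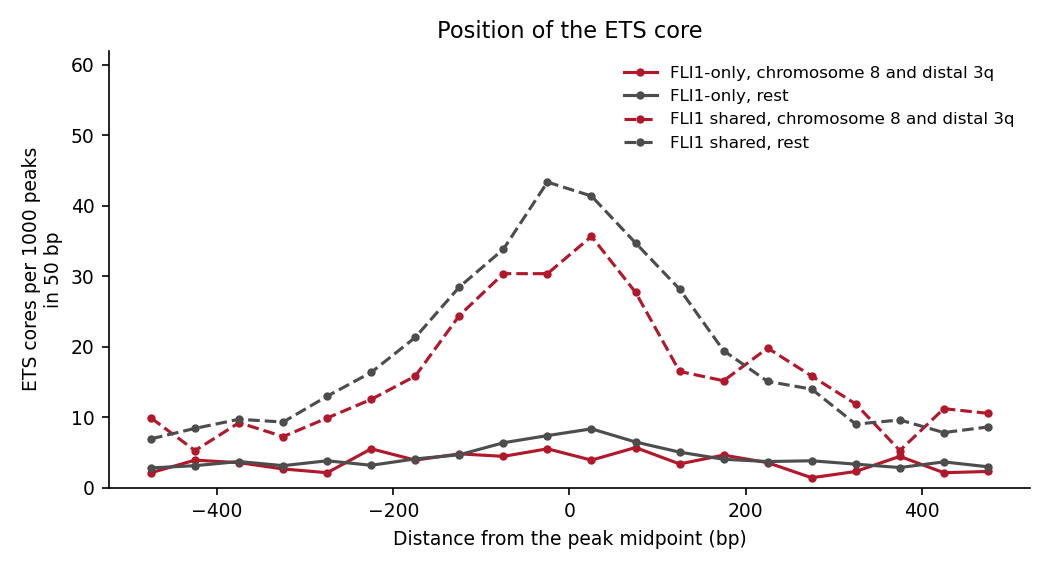
ETS cores per 1000 peaks in bins of 50 bp (vertical axis) by distance from the peak midpoint in bp, for FLI1-only peaks (solid lines) and FLI1 peaks shared with SSRP1 or H3K27ac (dashed lines), on chromosome 8 and distal 3q (red) and in the rest (grey). The solid red line stays between 1.43 and 5.71 over the whole window, and both dashed lines have their highest values in the central bins.

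Other ETS letters and a control motif gave small differences between members and the rest. No GGAA at all, on either strand, was found in the letters of 23.4% of members (22.3 to 24.5) and 21.9% of the rest (21.3 to 22.5). A run of 2 or 3 tandem GGAA was found in 2.68% of members (2.27 to 3.14), in 3.17% of the rest (2.92 to 3.43) and in 7.73% of the shared FLI1 peaks of the regions. Of all 200 bp tiles of the regions, which are shorter than any member, 83.1% held GGAA and 1.87% at least 2 in tandem. These tile shares were not weighted for GC content. The longer ETS consensus ACCGGAAGT, searched on both strands, occurred in 4 members (0.0714%, 0.0195 to 0.183) and in 11 peaks of the rest (0.0586%, 0.0293 to 0.105), with 0.0163% of tiles. The site of AP-1, another family of activators, is TGANTCA, which reads the same on both strands. It occurred in 5.02% of members (4.46 to 5.62), 4.46% of the rest (4.17 to 4.76) and 6.51% of tiles of the regions. A match is a stretch of letters and not a measured binding site.

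Letters of the Alu repeat, the commonest short interspersed element of primates, were frequent in members. No repeat annotation was used here, so overlap with annotated Alu copies was not tested. The 10-mers that distal 3q members held most in excess of distal 3q tiles were letters found in the Alu consensus, such as AAATACAAAA in 28.2% of members there and 3.78% of tiles, GCTGGGATTA in 26.7% and 4.75%, and CTCAGCCTCC in 25.9% and 4.63%, each counted on both strands. These 10-mers were chosen on distal 3q, and the chromosome 8 members, which were not used to choose them, held these 3 in 23.4%, 22.2% and 21.4% of cases. Any of the 10 leading 10-mers occurred in 1438 of the 3595 chromosome 8 members (38.4 to 41.6%) and in 46.6% of distal 3q members (44.4 to 48.8), against 38.8% of FLI1-only peaks of the rest (38.1 to 39.5). Tiles of chromosome 8 with the GC content of its members held one in 25.3% of cases, a ratio of 1.58. Shared FLI1 peaks of chromosome 8 held one in 9.41% (7.65 to 11.4), 0.618 times their tiles.

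The core was less frequent in peaks with these letters. Among members with a leading 10-mer 0.759% held an ETS core (0.450 to 1.20), against 2.60% of members with none (2.08 to 3.21); in the rest the 2 shares were 0.741% (0.557 to 0.966) and 3.83% (3.49 to 4.202). On chromosome 8, which was not used to choose the 10-mers, the density ratio over the rest was 3.61 for peaks with one (3.41 to 3.82) and 3.44 for peaks with none (3.28 to 3.60), and the intervals overlapped.

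Repeats of exact sequence differed in direction with the limit used. At least 50% of the 50-mers of a peak occurred more than once in the genome, on either strand, for 10.9% of members (10.1 to 11.7) and 12.9% of the rest (12.4 to 13.4). No 50-mer was repeated for 45.6% of members (44.3 to 46.96) and 50.2% of the rest (49.5 to 50.9). Members thus held at least 1 repeated 50-mer more often than the rest, and reached the 50% limit less often. For peaks with no repeated 50-mer the density ratio was 3.215 (3.08 to 3.36).

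Members lay near a TSS or an H3K27ac peak less often than the class elsewhere. For 286 members a TSS of a protein-coding gene was at most 2.5 kb away (5.11%, 4.545 to 5.72), and the same held for 7.32% of the rest (6.95 to 7.70). The median distance was 47689 bp for members and 32260 bp for the rest. Neither value was adjusted for gene density, which was lower in the regions: 1158 protein-coding genes in 220.8 Mb, against 18940 in 2615 Mb. By their midpoints 42.8% of members were intronic, 3.86% exonic and 53.4% outside protein-coding genes, against 46.35%, 5.735% and 47.9% in the rest. An H3K27ac peak lay within 10 kb of 19.95% of members (18.9 to 21.0) and of 24.85% of the rest (24.2 to 25.5). This share was 17.75% on chromosome 8 (16.5 to 19.0) and 23.9% on distal 3q (22.04 to 25.8), so the distal 3q interval overlapped that of the rest. For SSRP1 within 10 kb the shares were 21.3% of members (20.25 to 22.4) and 21.4% of the rest (20.8 to 21.95). Another FLI1 peak lay within 10 kb of 58.7% of members (57.4 to 59.99) and 37.7% of the rest (36.99 to 38.4), a measure that follows from the density that chose the regions.

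Most genes of the regions carried members. Of 1158 protein-coding genes there, 923 (79.7%) had at least 1 FLI1-only peak in the gene or within 10 kb, against 7672 of 18940 (40.5%) in the rest. Longer genes held members more often. All 76 genes over 300 kb held one between their start and end, against 72.1% of 748 such genes in the rest, and so did 18.65% of the 252 genes up to 10 kb, against 5.32% of 4984 in the rest. Per Mb of gene body the long genes held 17.2 FLI1-only peaks in the regions and 4.51 in the rest, and the genes up to 10 kb held 51.0 in the regions and 11.9 in the rest. These contrasts of regions and rest largely follow from the density that chose the regions.

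On chromosome 8 the gene with most members was TRAPPC9 (chr8:140739968-141468678, - strand), a subunit of a vesicle tethering complex, with 54 members in 728.7 kb, or 7.41 per 100 kb. It also held 9 H3K27ac and 10 SSRP1 peaks. DLGAP2, which encodes a scaffold protein of the postsynaptic density, had 38 members in 969.0 kb and no H3K27ac peak. CSMD1, a large membrane protein that regulates complement, had 26 members in 2060 kb and neither an H3K27ac nor an SSRP1 peak nor a shared FLI1 peak. These long genes thus held members with little or no acetylation, unlike TRAPPC9. The next were VPS13B, a lipid transfer protein, with 22 members, PEBP4, a lipid-binding protein, with 20, and ANK1, the ankyrin of the red cell membrane skeleton, with 19. DLC1, a GTPase-activating protein, also had 19; TG, the thyroid hormone precursor, and PSD3, an exchange factor for ARF6, had 18 each, and MSRA, which repairs oxidised methionine, had 17. Per 100 kb these 10 genes held between 1.26 members in CSMD1 and 7.80 in ANK1.

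On distal 3q the gene with most members was EEFSEC (chr3:127872324-128127489, + strand), the elongation factor for selenocysteine, with 25 members in 255.2 kb, or 9.80 per 100 kb. XXYLT1, a xylosyltransferase that acts on Notch, had 18 members, with 16 H3K27ac peaks in the gene and 14 shared FLI1 peaks in or near it. MYLK, the kinase of myosin light chain, and MGLL, a lipase of the endocannabinoid pathway, had 17 each. The 2 differed in the other lists: MYLK held 10 H3K27ac peaks and MGLL 1. CHCHD6, a subunit of the mitochondrial cristae complex, had 16, and EPHB1, a receptor for ephrins, and NAALADL2, a peptidase-like membrane protein, had 15 each. PLCH1, a phospholipase C, and KCNAB1, a potassium channel subunit, had 14 each, and STAG1, a cohesin subunit, had 13. KCNAB1 held no H3K27ac and no SSRP1 peak.

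Gene lists of the regions are described by their counts, read against the 79.7% of all genes there; a gene on 2 lists counts under both. Of 24 oncogenes and tumour suppressors, 22 had a member in the gene or within 10 kb, among them DLC1 with 19, EPHB1 with 15, the adhesion gene LPP with 14 and PTK2, the focal adhesion kinase gene, with 13. The transcription factor gene MYC had 1 member and 5 shared FLI1 peaks, and PIK3CA, a lipid kinase gene, had 1 and none. TRIB1, a pseudokinase gene, and SOX2 had no member and 4 and 2 shared FLI1 peaks. Of 28 developmental transcription factors, 25 had a member: EYA1 and ZFPM2 had 10 each, MECOM 8, GATA4 7, and ETV5, an ETS factor gene, 6. SNAI2, SHOX2 and SOX2 had none and 1, 1 and 2 shared FLI1 peaks.

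Of 24 genes of synapse and neural adhesion, 21 had a member, led by CSMD1 with 26, SGCZ with 16, CSMD3 with 15 and NRG1 with 13. Their genes were long, with a median of 380.7 kb against 39.6 kb for all genes of the regions, and held 12.8 members per Mb of gene against 26.2. NEFL, a neurofilament gene, STMN2 and IL1RAP had none. Of 27 genes on a broad list of receptors and signalling, 22 had a member, such as NRG1 with 13, ADCY5 with 12 and GFRA2 with 8. FGF20, CCN3, P2RY1, GHSR and SST had none.

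Of 21 genes of genome maintenance and replication, 13 had a member. They included PRKDC with 8, the helicase gene WRN with 4 and the checkpoint kinase gene ATR with 3. A shared FLI1 peak lay in or within 10 kb of 17 of the 21, and of 621 of all 1158 genes of the regions. The 8 genes without a member included RAD21, MCM4 and RECQL4, with 1, 1 and 2 shared FLI1 peaks. The median length of this list was 40.7 kb. Of 24 genes that mark other cell types, 16 had a member and 4 a shared FLI1 peak. FGL1 and KNG1, which encode liver proteins, had 4 members each. The intervals of these shares were wide, 38.4 to 81.9% for genome maintenance and 44.7 to 84.4% for other cell types, and those of all 6 lists held 79.7%.

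The widest members of the 2 regions differed in repeats. The 10 widest on chromosome 8 were 893 to 1345 bp wide, and in 6 of them at least 50% of the 50-mers were repeated, as in the peaks at chr8:86567570-86568914 near REXO1L1 and chr8:7431343-7432235 at FAM90A22, which are gene families with many near-identical copies. Where reads were assigned among such copies is uncertain. The 10 widest on distal 3q were 734 to 1200 bp wide and none had that many repeated 50-mers. They were led by a peak in an intron of MUC20, a mucin gene (chr3:195453684-195454883), one between genes 17.5 kb from KLF15 (chr3:126057630-126058719) and one 2.81 kb from LRRC15 (chr3:194093285-194094308). In each region 1 of the 10 held an ETS core, in distal 3q the one near LRRC15.

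Members that lay within 2.5 kb of a TSS and held an ETS core numbered 10. The 7 on chromosome 8 were nearest a TSS of FAM90A12P, DOCK5, TRIM35, CTSB, DEFB136, FAM90A9 or DEFA4. In 3 of them, those near FAM90A12P, FAM90A9 and the defensin gene DEFA4, at least 50% of the 50-mers were repeated. These 3 lay 2.22 to 2.43 kb from the TSS. The peak in an intron of CTSB, the gene of the protease cathepsin B, lay 151 bp from a TSS, with an H3K27ac peak 4.45 kb away. The TRIM35 peak covered a TSS, and its nearest H3K27ac peak lay 0.0 kb away. For the others on chromosome 8 that distance was 44.7 to 272 kb. The 3 on distal 3q covered a TSS of CCDC39, a gene of motile cilia (chr3:180397156-180397585), of ESYT3 (chr3:138153234-138153460) and of HTR3C, a serotonin receptor subunit gene (chr3:183770647-183770873). Their nearest H3K27ac peaks lay 76.6, 246 and 34.4 kb away.

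Few members lay near the limits of the rule. Of the 5600, 5572 met no other peak, 10 had a largest overlap under 10% and 18 one of 10 to under 20%, while 12 FLI1 peaks of the regions just outside had 20 to under 30%. Those just inside the limit had a median width of 320.5 bp and those just outside 410.5 bp. There were 5 members with 3 tandem GGAA, and 1 peak was left out with 4. On chromosome 3, 3 members lay between 120 and 121 Mb and 5 FLI1-only peaks between 119 and 120 Mb.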

How the data were processed

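Chromatin of SKNMC cells was precipitated for FLI1, SSRP1 and H3K27ac, 1 library each beside input, 4 libraries in all, grouped by sample title. Read mapping by the authors used Bowtie2 on hg19, per the series' design text, and peaks over input were then called with MACS2 (version 2.2.7.1, per the submitters' processing notes) at a q-value threshold of 0.05, in each library separately. Read filters are not given in the sources used here. The deposited lists hold positions and names, with no height, p-value or q-value. Lines that repeat an interval were counted once, so 38324 FLI1 lines gave 36539 peaks. Density is per Mb without N. Positions are 1-based.

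Windows of 200 bp at peak midpoints were set beside all 200 bp tiles, unweighted or weighted to the peaks' GC content in bins. Genes were 20098 protein-coding genes of GENCODE release 44 on GRCh37. Intervals are Clopper-Pearson for shares, exact Poisson for densities and exact conditional for ratios. Functions were tested on simulated data. The software was scipy 1.17.1, pandas 2.3.3, numpy 2.4.6 and matplotlib 3.10.9 under Python 3.11.15.

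The members and gene lists were chosen with earlier results of these data known. Genes and peaks named were, by rule, the 10 genes of each region with most members, any gene of the lists, the 10 widest members of each region, members at a TSS with a core, and for sequences the widest of each kind on distal 3q up to 300 bp; 3 sequences with 3 tandem GGAA were planned and distal 3q has 2. Some sequences and 1 gene that the rule names are not reported here. TOP2B, on a list, lies outside the regions. The width classes planned began lower; no peak was under 227 bp. Alternatives were other overlap limits, widths, windows and chromosome sets.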

Additional observations from a re-analysis of the deposited data

How the results depend on the processing

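Of 23 alternatives, 8 left the value within its counting interval, 14 moved it and 1 turned the order of regions and rest. Where an alternative only widened or narrowed a window, a change of the value was built in. The tally therefore does not measure how stable the contrast of regions and rest was. The density ratio of 3.53 became 3.93 with peaks at or above the median width of the FLI1 list, and 3.34 with autosomes alone. It was 3.10 when the rest lost the sparse chromosomes 10 and X, chromosome 16 from 40 Mb and chromosome 17 before 20 Mb. Chromosome 3 before 120 Mb, with 1.45 per Mb, stayed in that rest. Among alternatives chosen after seeing the data, the density ratio was 3.215 for peaks with no repeated 50-mer. It was 3.33 for peaks with none of the leading 10-mers and 3.56 with the start of distal 3q at 122 Mb. The FLI1-only share, over peaks without a run, was 79.4% in the regions and 66.35% in the rest, and 69.7% and 52.2% for the wider peaks.

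The ETS core share (1.82% in the regions, 2.63% in the rest) was 2.77% and 3.53% in the whole peak, 0.875% and 1.43% in the central 100 bp, 2.60% and 3.83% without the leading 10-mers and 2.23% and 3.89% without repeated 50-mers. For ACCGGAAGT it was 0.0714% and 0.0586%, the order turned, on 4 and 11 peaks with overlapping intervals. The TSS share was 2.25% and 3.70% at 1 kb and 9.25% and 12.9% at 5 kb, and the share with H3K27ac in reach 10.8% and 15.2% at 5 kb and 55.5% and 63.2% at 50 kb. In these alternatives for the core, the TSS and H3K27ac, ACCGGAAGT excepted, the regions had the lower share.

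No paired analysis was possible because each target has 1 library. Without replicates, read depth or peak height, whether another FLI1 library would give these densities was not tested.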
